A study of Mus musculus with 2 samples.

Results

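Stage-specific embryonic antigens (SSEA) are carbohydrate chains on glycoproteins and glycolipids of the cell surface, and they are built by glycosyltransferases that each add 1 sugar. Here, the RNA levels of 10 such enzymes were described in CH cells, the small cells without CD45 and lineage antigens that circulate in the blood of healthy mice. The set held the fucosyltransferase genes Fut1, Fut2, Fut4, Fut7 and Fut9, the galactosyltransferase genes B4galt1 and B3galt5, and the sialyltransferase genes St3gal1, St3gal2 and St8sia1. Every probe set of the array whose platform annotation names 1 of these genes alone was taken, which gave 22 probe sets for 10 genes, of 45037 probe sets and 18193 singly named genes in all. B4galt1, Fut1 and Fut7 were read by 1 probe set each, while 7 genes had more than 1.

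The study held 1 group. CH cells (PlCH in the labels) were sorted from the peripheral blood of healthy C57bl/6 mice, male and female, whose age the labels give as 7 months. RNA of 2 separate pools, each drawn from 15 animals, was hybridized to 1 Affymetrix mouse array per pool, so the spread between single mice was not measured. The methods give a younger age and smaller pools, and which applied to the arrays is not settled by the sources used here. The arrays of other cell populations were not analysed here, and no comparison between populations was made.

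SSEA-1 is the Lewis x structure, known as CD15, which arises when fucose is joined to N-acetyllactosamine. It marks mouse embryonic stem cells and early mouse embryos, whereas SSEA-3 and SSEA-4 mark human pluripotent cells. The last 2 are glycolipids of the globo-series, made by adding a galactose to globoside and then capping it with sialic acid. The same class of sialyltransferases also makes gangliosides and, together with Fut7, the sialyl Lewis x ligand of the selectins, on which blood cells roll along vessel walls. RNA levels of the enzymes are not measures of the antigens, which were not assayed on the arrays.

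Signals are log2 values as deposited. Before clustering, the methods removed genes that lay below 5 (log2) across all of the joint dataset. Here the same value was applied to the CH cell arrays alone and served as the limit. A probe set was called above it when it exceeded 5 on both arrays, and each mean was also tested against 5 with limma. Probe sets differ in affinity, so their signals were not ranked against each other as amounts of RNA. As background, 84 probe sets of 76 receptors of smell, pheromones and taste were used. Their median was 4.06, their 95th percentile 6.04 and their highest value 6.92, and 13 of the 76 genes (17.1%) passed the limit as well. In bulk RNA, fewer cells with a transcript and less of it per cell cannot be told apart.

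Of the 22 probe sets, 8 (36.4%) were above 5 on both arrays, against 57.2% of all probe sets, and 12 (54.5%) were at or below 5 on both, against 39.1% of all. The remaining 2 were above it on 1 array only. By gene, 6 of 10 (60.0%) had at least 1 probe set above 5, against 71.2% of all genes. If each gene was taken at its median probe set instead, 4 of 10 passed, since Fut2 at 4.81 and B3galt5 at 4.93 did not. A probe set above 8 was found for 2 of 10 (20.0%), against 37.0%. The highest probe sets of the 10 genes had a median of 5.56, whereas the median over all genes was 6.84. Tested by limma at an adjusted p below 0.05, 8 of the 22 were above 5 (54.8% of all probe sets), 10 were below it (36.4% of all) and 4 were not called. Of the set, only B4galt1 and St3gal2 exceeded the highest chemosensory receptor. The share of all genes above that receptor was not counted.

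**Figure D1:**
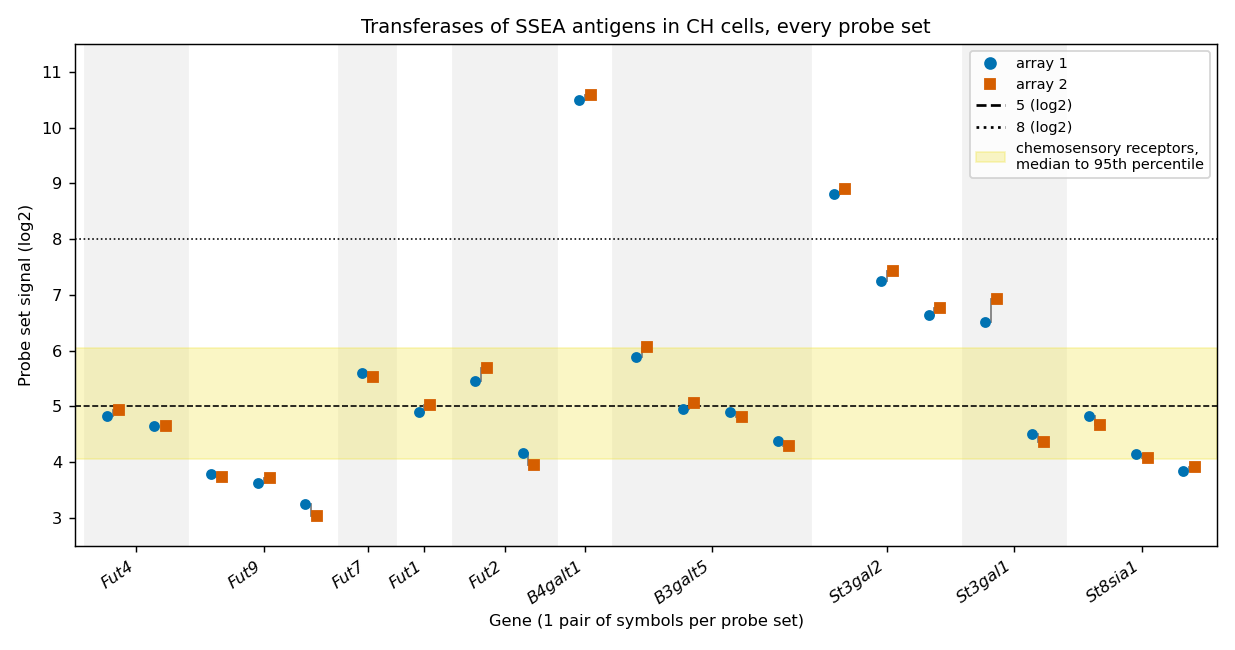
Log2 signal of every probe set (vertical axis) of the 10 SSEA transferase genes (horizontal axis), with a circle for array 1 and a square for array 2. The dashed and dotted lines mark 5 and 8 (log2), and the yellow band runs between the median and 95th percentile of the chemosensory receptors, 4.06 and 6.04. B4galt1 lies near 10.54 and all 3 probe sets of St3gal2 above the band, while those of Fut9 lie below it.

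The enzyme that makes the acceptor of SSEA-1 had a high signal. B4galt1, which joins galactose to N-acetylglucosamine and so forms N-acetyllactosamine, was at 10.49 on array 1 and 10.58 on array 2, with a mean of 10.54 ± 0.06 (SD, n = 2 arrays). This lay above 92.9% of all probe sets and above all 84 receptor probe sets (adjusted p = 1.07e-07 against 5, limma).

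The fucosyltransferases that complete Lewis x were, in contrast, not above 5 with any probe set. Fut9, the enzyme on which SSEA-1 of mouse embryos depends, was at 3.79 and 3.72 with its first probe set, at 3.62 and 3.72 with the second and at 3.25 and 3.04 with the third. The means were 3.76 ± 0.05, 3.67 ± 0.07 and 3.14 ± 0.15 (SD, n = 2 arrays), all below 5 by limma (highest adjusted p = 2.37e-05) and all below the median of the receptors. Only 3 of the 84 receptor probe sets lay below the lowest of them. Fut4, the Lewis x enzyme of myeloid cells, was at 4.83 and 4.93 with 1 probe set, with a mean of 4.88 ± 0.07 that was not told from 5 (adjusted p = 0.16, limma). Its other probe set gave 4.64 on both arrays and was below 5 (adjusted p = 0.0042, limma). Equal values to the last digit occurred in 58 probe sets of the array. The test places these levels against the limit and does not show that the transcripts were absent.

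Fut7, which fucosylates sialylated chains to give sialyl Lewis x, was at 5.59 and 5.53, a mean of 5.56 ± 0.05 (SD, n = 2 arrays). It was above 5 on both arrays (adjusted p = 7.2e-04, limma), but 7 of the 84 receptor probe sets lay higher, so the level lay within the range of background. Of the sialyltransferases known to act before Fut7, St3gal4 was at 9.56 ± 0.07 with its only probe set, and St3gal6 at 7.29 ± 0.16 with the highest of 5, whose median was 5.36 and whose lowest was 2.97.

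Fut1 and Fut2 add fucose in the linkage of the H blood group antigen, Fut2 mainly in secretory epithelia. Fut1 was at 4.90 on array 1 and 5.02 on array 2 and so lay on both sides of the limit, with a mean of 4.96 ± 0.09 (SD, n = 2 arrays, adjusted p = 0.64, limma). For Fut2 the probe sets disagreed. The 1450246_at probe set was at 5.45 and 5.68, with a mean of 5.57 ± 0.16 (adjusted p = 0.0016 above 5, limma), while 1434862_at was at 4.16 and 3.95, with a mean of 4.06 ± 0.15 (adjusted p = 1.6e-04 below 5, limma). These means were 1.51 apart. Of the 84 receptor probe sets, 7 lay above 1450246_at, so its level too lay within the range of background. Sec1, a paralog of Fut2, was at 5.80 ± 0.10 with its highest probe set.

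The final steps of SSEA-3 and SSEA-4 showed unlike signals. B3galt5, whose human counterpart extends globoside to SSEA-3, was above 5 with 1 of its 4 probe sets. That probe set, 1459801_at, was at 5.88 and 6.07, with a mean of 5.98 ± 0.13 (SD, n = 2 arrays, adjusted p = 1.1e-04, limma), and 5 receptor probe sets lay above it. The 1428398_at probe set was at 4.94 and 5.06 and that of 1428397_at at 4.89 and 4.81, and neither mean was told from 5 (adjusted p = 0.96 and 0.098, limma). The 1450528_at probe set, the one among the 4 designed on a RefSeq transcript, was at 4.38 and 4.29, and its mean of 4.34 ± 0.07 was below 5 (adjusted p = 3.8e-04, limma). The probe sets of B3galt5 thus spanned 1.64, and the call of this gene rested on 1 of them.

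St3gal2, which caps SSEA-3 with sialic acid to form SSEA-4 and also sialylates gangliosides, was above 5 with all of its 3 probe sets. Its 1421891_at probe set was at 8.82 and 8.90, with a mean of 8.86 ± 0.06 (SD, n = 2 arrays, adjusted p = 2.6e-07, limma). The others were at 7.25 and 7.42, a mean of 7.34 ± 0.12, and at 6.64 and 6.76, a mean of 6.70 ± 0.08, and limma called both above 5 (highest adjusted p = 8.0e-06). The lowest of the 3 exceeded 83 of the 84 receptor probe sets. St3gal2 was the only gene of the set with several probe sets and all of them above 5.

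Of the 6 other genes of the globo-series, 4 (66.7%) had a probe set above 5, against 71.2% of all genes. The same 4 were above 8, against 37.0% of all genes. Ugcg, which makes glucosylceramide, the first glycolipid of the route, was at 8.89 ± 0.02 (SD, n = 2 arrays). B4galt6 and B4galt5, which turn it into lactosylceramide, were at 10.01 ± 0.04 and 8.21 ± 0.04, and B3galnt1, the globoside synthase, at 9.79 ± 0.13. A4galt, which makes the precursor of globoside, was read by 1 probe set and gave 4.63 on array 1 and 4.90 on array 2, a mean of 4.77 ± 0.19 that limma did not call (adjusted p = 0.058). Gbgt1, which extends globoside to the Forssman antigen, was at 4.46 ± 0.15, below 5 (adjusted p = 0.0018, limma). Other probe sets of Ugcg and B4galt5 fell below 5, the lowest at 3.95 and 4.93, while the lowest of B4galt6 was at 7.39. Along the globo-series, 2 steps had no probe set above the 95th percentile of the receptors, A4galt and B3galt5, and the other genes of the route to SSEA-4 had at least 1.

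**Figure D2:**
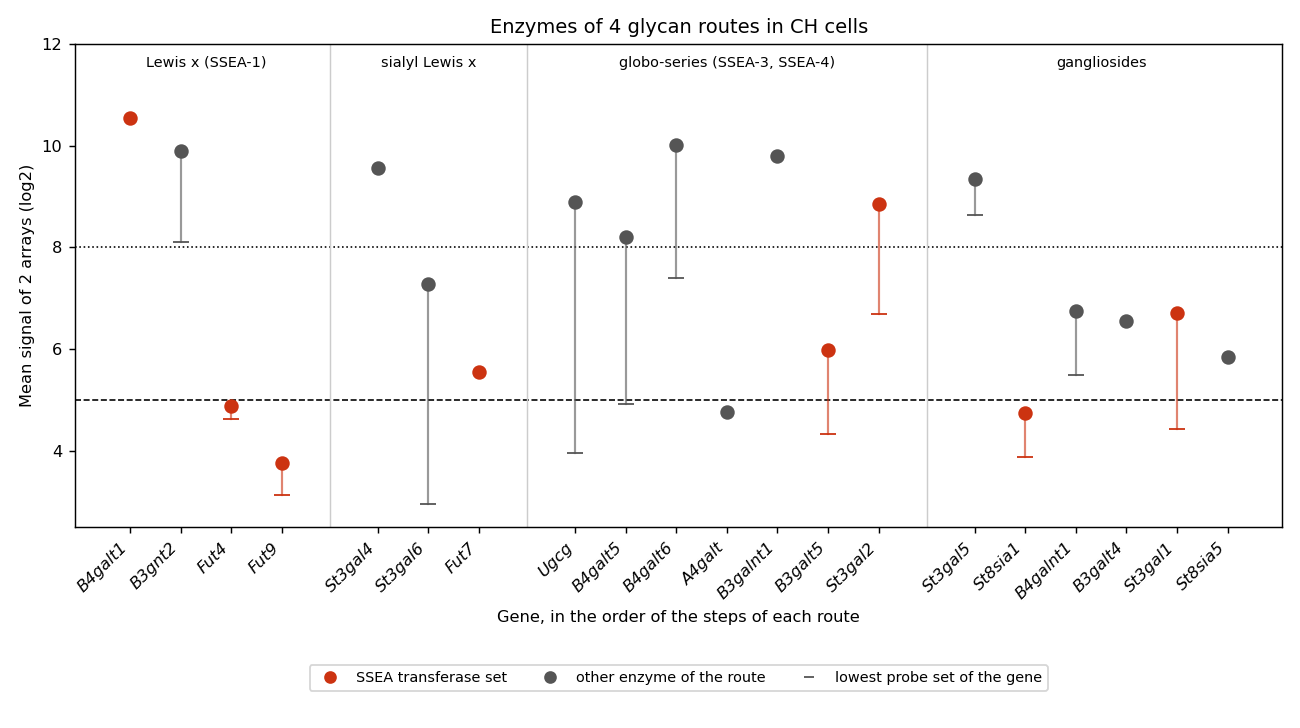
Mean log2 signal of the 2 arrays (vertical axis) for enzymes of 4 glycan routes (horizontal axis), where points stand for each gene's highest probe set and dashes for its lowest if there are several. Red points belong to the SSEA transferase set, and the dashed and dotted lines mark 5 and 8 (log2). Fut4 at 4.88, Fut9 at 3.76, A4galt at 4.77 and St8sia1 at 4.75 lie under the dashed line.

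St3gal1, which sialylates the core of O-linked chains and can also act on gangliosides, was the gene of the set with the widest spread, both between probe sets and between arrays. Its 1418946_at probe set was at 6.52 on array 1 and 6.92 on array 2, with a mean of 6.72 ± 0.28 (SD, n = 2 arrays, adjusted p = 4.3e-05 above 5, limma), and exceeded 83 of the 84 receptor probe sets. The 1441216_at probe set was at 4.50 and 4.37, with a mean of 4.43 ± 0.09 (adjusted p = 8.9e-04 below 5, limma), so that the 2 lay 2.28 apart.

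St8sia1, which makes the ganglioside GD3, was not above 5 with any of its 3 probe sets. They were at 4.82 and 4.67, at 4.15 and 4.07, and at 3.85 and 3.92, with means of 4.75 ± 0.11, 4.11 ± 0.06 and 3.88 ± 0.05 (SD, n = 2 arrays). Each was below 5 by limma, and the highest adjusted p was 0.025. The substrate of St8sia1 is the product of St3gal5, which was at 9.35 ± 0.07 and, with its other probe set, at 8.64.

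Among the 9 other genes of ganglioside synthesis, 8 (88.9%) were above 5, against 71.2% of all genes, and 3 above 8, against 37.0%. After St3gal5, St6galnac6 and St6galnac4, which add further sialic acids, were at 8.69 ± 0.02 and 8.39 ± 0.05 (SD, n = 2 arrays). B4galnt1, which builds the next sugar of complex gangliosides, was at 6.75 ± 0.02, and B3galt4, which acts after it, at 6.55 ± 0.004. St8sia5 at 5.84 ± 0.17, St8sia3 at 5.64 ± 0.09 and St6galnac5 at 5.55 ± 0.06 lay above 5 and below the 95th percentile of the receptors. For St8sia3 this held with 1 of 2 probe sets, and the other was at 3.66. For St6galnac5 it held with 1 of 3, and the lowest was at 3.90. St6galnac3 was at 4.57 ± 0.23 and was below 5 (adjusted p = 0.0087, limma).

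Of 13 genes listed for N-acetyllactosamine chains, the acceptors of Fut4 and Fut9, 9 were above 5 on both arrays and 8 by limma. The 9 made up 69.2%, against 71.2% of all genes. The list also held B3galt1, at 6.31 and among the 9, and B3galt2, which join galactose in another linkage than that of N-acetyllactosamine. B3gnt2, the main enzyme of the elongation of N-acetyllactosamine chains, was at 9.89 ± 0.005 (SD, n = 2 arrays), and its lower probe set was at 8.11. B4galt3 was at 8.90 ± 0.01, B3gnt5, which starts the chain on lactosylceramide, at 8.20 ± 0.17, and B4galt2 at 7.90 ± 0.27. The lower probe sets of B4galt3 and B3gnt5 were at 3.49 and 3.77. The lowest genes were B3galt2 at 3.25 ± 0.10 and B4galt4 at 3.88 ± 0.15.

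All 6 other fucosyltransferase genes listed had a probe set above 5, against 71.2% of all genes, and 4 had one above 8, against 37.0%. The median over their highest probe sets was 8.65. Pofut2 and Pofut1, which fucosylate protein domains directly, were at 10.57 ± 0.09 and 9.03 ± 0.07 (SD, n = 2 arrays), and Fut8, which adds the core fucose of N-linked chains, at 10.15 ± 0.01. Fut10 was at 8.27 ± 0.04 and Fut11 at 7.62 ± 0.08. The other probe sets of Fut8 were at 5.58 and 3.88. Sec1, given above, was the lowest of the 6. The list was not tested against the set.

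Among 10 other sialyltransferases, 6 (60.0%) were above 5, against 71.2% of all genes, with a median of 6.21. Besides St3gal4 and St3gal6, St6gal1, which caps N-linked chains, was at 8.37 ± 0.06 (SD, n = 2 arrays) and St3gal3 at 8.07 ± 0.06. The lowest were St6gal2 at 3.79 ± 0.05 and St8sia6 at 4.0 ± 0.04. By linkage, and with the members counted in, all 6 genes of the St3gal family were above 5, as were 5 of 8 genes of the St6gal and St6galnac families and 3 of 6 of the St8sia family.

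The genes that supply activated sugars were above 5 throughout, at 5 of 5 for GDP-fucose, 6 of 6 for CMP-sialic acid and 3 of 3 for UDP-galactose. Over all genes the share was 71.2%. Gfus, which completes GDP-fucose, was at 10.73 ± 0.01 (SD, n = 2 arrays), Gmds, the first enzyme of that pathway, at 9.26 ± 0.13, and the salvage enzymes Fpgt and Fcsk at 9.16 ± 0.25 and 8.12 ± 0.10. Slc35c1, which carries GDP-fucose into the Golgi, was lower at 5.67 ± 0.19 with its only probe set. For sialic acid, Nans and Nanp, which make the free sugar, were at 10.56 ± 0.03 and 10.05 ± 0.003, Cmas, which activates it, at 9.97 ± 0.08, the transporter Slc35a1 at 9.92 ± 0.03, and Gne, which starts the pathway, at 8.21 ± 0.02. Cmah, which hydroxylates sialic acid, was at 5.48 ± 0.08 with 1 of 6 probe sets and not above 5 with the others. Ugp2, which makes UDP-glucose, was at 10.83 ± 0.02, the UDP-galactose transporter Slc35a2 at 7.96 ± 0.01 and Galt at 7.67 ± 0.03.

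**Figure D3:**
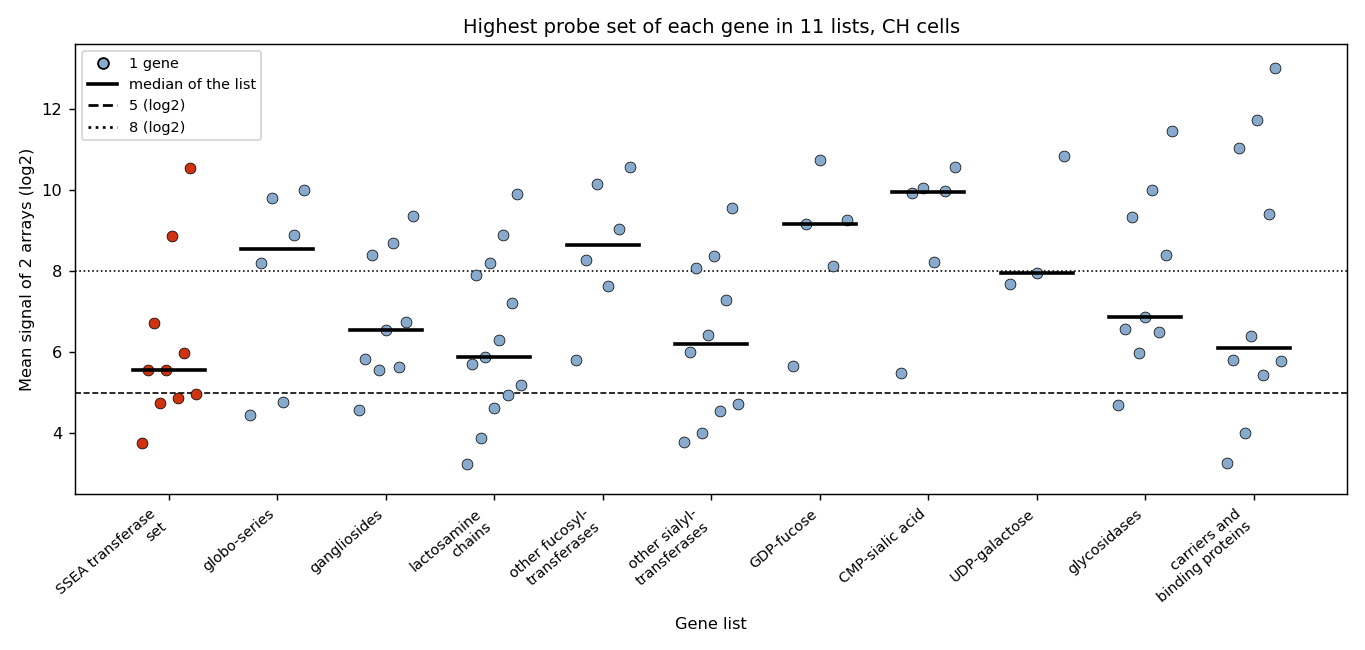
Mean log2 signal of the 2 arrays (vertical axis) for genes of 11 lists (horizontal axis), where points stand for each gene's highest probe set and black bars for list medians. The median is 5.56 for the SSEA transferase set in red, 8.65 for other fucosyltransferases and 9.95 for CMP-sialic acid, and probe affinity adds to differences between genes.

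Enzymes that remove these sugars were above 5 in 8 of 9 cases (88.9%, against 71.2% of all genes). Hexa, a subunit of the lysosomal hexosaminidase, was at 11.45 ± 0.05 (SD, n = 2 arrays), the fucosidase Fuca1 at 10.003 ± 0.04, the galactosidases Glb1 and Gla at 9.34 ± 0.07 and 8.40 ± 0.04, and the sialidases Neu3 and Neu2 at 5.97 ± 0.30 and 4.69 ± 0.12. Other probe sets of Fuca1 and Gla were as low as 4.83 and 3.32. Of 10 proteins that carry or bind such chains, 8 (80.0%) were above 5, against 71.2% of all genes. Cd44, a hyaluronan receptor that can carry selectin ligands, reached 13.00 ± 0.005 with its highest probe set and 3.40 with its lowest. Cd24a, a small glycoprotein, was at 11.72 ± 0.07, Glg1, a Golgi protein that can bind E-selectin, at 11.05 ± 0.02, and Podxl, a sialylated surface protein, at 9.42 ± 0.07. Sele, the E-selectin of endothelium, was at 4.01 ± 0.02 and Siglecf, a lectin of eosinophils, at 3.27 ± 0.27.

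The arrays differed little for the set. Of the 22 probe sets, 18 differed between arrays by less than 0.20, the SD of the difference over all probe sets. Among all probe sets, 27.8% differed by more than 0.2, so small differences were common on these arrays at large. Within the set, 9 probe sets were higher on array 1, 12 on array 2 and 1 was equal. The largest difference between array 1 and array 2 was -0.40, for the higher probe set of St3gal1. Across all probe sets, which are not independent replicates, Pearson's r between the arrays was 0.9967.

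The labelled cell type was checked against its markers. For scale, 71.2% of all genes were above 5 and 37.0% above 8. Ptprc, which encodes CD45, was at 4.95 on array 1 and 5.24 on array 2 with the higher of its 2 probe sets. That mean was not called by limma (adjusted p = 0.36), and the other probe set had a mean of 3.58. Of 10 leukocyte markers, 5 were above 5 and 0 above 8, from Itgam at 3.85 to Cd3e at 6.61. Of 8 markers of red cells and platelets, 5 were above 5 and 0 above 8. The platelet genes Pf4 at 5.98, Gp1bb at 6.34, Ppbp at 6.99 and Itga2b at 7.18 all passed 5. Gp1bb did so with 1 of its 2 probe sets, the other being at 4.82. Pf4 lay under the 95th percentile of the chemosensory receptors, 6.04. Ppbp and Itga2b also exceeded the highest chemosensory receptor. Of the red cell genes, Klf1 at 5.90 passed, while Hba-a1 at 4.22, Slc4a1 at 4.44 and Alas2 at 4.91 did not. Of the 4 endothelial markers, Pecam1 and Tek were at 4.57 and 4.34, while Cdh5 at 5.13 and Kdr at 6.43 were above 5 on both arrays, Cdh5 without a call by limma (adjusted p = 0.15). The epithelial genes Krt8 and Krt18 reached 11.87 and 10.66, and Cdh1 and Epcam 9.33 and 9.10. All 10 genes of pluripotent and mesenchymal cells were above 5, from Sox2 at 7.11 to Col1a2 at 14.27. What share of the signals of the SSEA transferase set came from any of these cell types was not tested.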

How the data were processed

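RNA of 2 pools of CH cells was measured on 1 Affymetrix array each. Values were log2 signals of probe sets as deposited by the authors. Their methods describe RMA with quantile normalisation of these arrays jointly with public data. Whether that run gave the deposited values, and the versions used, are not given in the sources used here. After removal of 64 control probe sets, 45037 remained, of which 34945 name 1 gene in the platform annotation. Symbols were checked through Entrez identifiers against GRCm38.p6, which changed 0. No build is named for the values, so no coordinates are printed.

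Means were set against 5 (log2) with limma 3.58.1 in R 4.3.3, as an intercept alone with empirical Bayes moderation, two-sided, with Benjamini-Hochberg adjustment over 45037 probe sets. Tested on simulated data for 45037 probe sets, both calls recovered 100% of 100 levels placed 1 above 5, and of 18420 at or below 5, both arrays called 0.793% and limma 0.0434%. Smaller steps were not simulated. The noise had the same SD for every probe set, and the levels at or below 5 were pooled, however far below. These shares therefore do not bear on calls close to 5, such as those of Fut1 and Fut4.

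Named were every probe set of the 10 genes, all genes of the globo-series and ganglioside lists and, of other lists, up to 4 highest and 2 lowest genes by mean. The highest probe set stood for a gene. The members and lists were chosen with earlier results of these data known. Some genes of the lists are not reported here. Limits of 6 and 8 and the 95th percentile of the receptors, limma, quantile normalization, omission of either array, the median over probe sets and omission of probe sets ending in _s_at, _x_at or _a_at were tried. Pools, not mice, are the replicates, and 2 arrays limit the precision. Python 3.11.15 with pandas 2.3.3 and numpy 2.4.6 was used.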

Additional observations from a re-analysis of the deposited data

How the results depend on the processing

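A higher limit admits fewer probe sets by its construction. The shares of all probe sets and genes above 6, or above the 95th percentile of the receptors, were not counted. The counts at these limits thus have no share to be read against. Above 8 the share was 37.0% of all genes. At a limit of 6, the counts were 5 probe sets and 3 genes of the SSEA transferase set, 5 ganglioside genes, 5 carriers and binding proteins, 3 leukocyte markers and 3 markers of red cells and platelets, and the same counts, 5, 3, 5, 5, 3 and 3, came at the 95th percentile of the receptors (6.04). At a limit of 8, they were 2 probe sets and 2 genes of the set, 3 ganglioside genes, 3 of lactosamine chains, 3 other sialyltransferases, 1 of UDP-galactose, 4 glycosidases, 4 carriers, 0 leukocyte markers, 0 of red cells and platelets and 6 pluripotent and mesenchymal genes. Without probe sets ending in _s_at, _x_at or _a_at, 1 gene of UDP-galactose was counted, and B4galt1, whose only probe set ends so, left the set. With the median over probe sets, 5 carriers were counted, 4 genes of the set (without Fut2 and B3galt5), 6 ganglioside genes and 6 glycosidases. The other counts moved by at most 1.5 times with that median. Quantile normalization, limma and the omission of either array moved no count by over 1.5 times. The largest shift of a member level by quantile normalization was 0.0038, so that setting could hardly move a count. Without replicate 1 the set had 10 probe sets and 7 genes above 5, Fut1 now among them, and without replicate 2 it had 8 and 6. No paired analysis was possible because both arrays belong to 1 group.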

Other observations

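Further genes of selectin binding were named after their values were seen. Selplg, which encodes the P-selectin ligand of leukocytes, was at 5.78 and 5.80 on the CH cell arrays, with a mean of 5.79 ± 0.02 (SD, n = 2 arrays) from its only probe set. Gcnt1, the branching enzyme on which that ligand depends, was at 6.05 and 5.69, with a mean of 5.87 ± 0.25. Selp, the P-selectin of platelets and endothelium, was at 5.44 ± 0.04 with 1 of its 3 probe sets above 5. All 3 means lay under 6.04, the 95th percentile of the chemosensory receptors, as did Fut7 at 5.56. Neu1, the lysosomal sialidase, was at 6.87 ± 0.03 with 1 of 3 probe sets above 5 and a median over probe sets of 4.77.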
